A study of Mus musculus with 19 samples.

Results

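Abhd1, AI506816, Galnt11, Gm2420 and Rint1 are 5 genes of mouse chromosome 5 that start within 20 Mb of Il6, and in this liver series they differed between IL-6 knockout and wild-type (WT) libraries. They were chosen for that difference, so their genotype values below are a description and carry no test. The series table holds 55416 gene lines, of which 15570 passed the low-count filter, and all 5 genes were among them. Gm2420 passed only through its counts in knockout libraries. Distances here are between gene starts in the GENCODE M21 annotation of GRCm38. Unless stated otherwise, a start is the lowest coordinate of the gene, whatever its strand.

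The study sequenced poly(A) RNA from livers of C57BL/6 mice and compared WT animals with animals lacking IL-6, the cytokine through which inflammation turns on acute phase genes in hepatocytes. Injected mice received 2 intraperitoneal injections 3 h apart, each of 4 mg furosemide or of vehicle, and the liver was harvested at 6 h from the first injection. The diuretic furosemide defines the groups labelled pre-renal azotemia (PRA), a rise of nitrogenous waste in blood from poor kidney perfusion. The 5 groups were 4 libraries of non-injected WT liver (normal), 4 of WT liver after vehicle, 4 of WT liver under PRA, 4 of IL-6-/- liver after vehicle and 3 of IL-6-/- liver under PRA. No non-injected knockout group was analysed here. The labels give neither age nor sex, nor how the IL-6-/- line was made. Nor do they state that each replicate is its own animal, and the p-values may therefore reflect technical spread only.

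The genes have unrelated roles. Abhd1 belongs to the alpha/beta hydrolase domain family of hydrolases and related proteins. Galnt11 encodes a polypeptide GalNAc transferase, an enzyme of the Golgi that starts mucin-type O-glycosylation by placing the first sugar on serine or threonine. Rint1 encodes a subunit of the NRZ complex, which tethers vesicles returning from the Golgi to the endoplasmic reticulum and is also linked to a cell cycle checkpoint. AI506816 is annotated as a long non-coding RNA, and Gm2420 as a transcribed pseudogene.

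Abhd1 (ENSMUSG00000006638) starts 0.937 Mb after Il6 and Gm2420 (ENSMUSG00000082305) 2.71 Mb after it. Galnt11 (ENSMUSG00000038072) starts 4.79 Mb before Il6, Rint1 (ENSMUSG00000028999) 6.23 Mb before it and AI506816 (ENSMUSG00000105987) 6.3 Mb before it. AI506816 lies on the minus strand, and its distance here is from its transcription start. GENCODE M21 types Galnt11 and Rint1 as protein coding, Abhd1 and AI506816 as processed transcripts and Gm2420 as a transcribed unprocessed pseudogene. RefSeq types Abhd1 as a transcribed pseudogene.

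The sequence of Abhd1 bears on how its counts can be read, because the gene overlaps Preb, which lies on the other strand and encodes an activator of the Sar1 GTPase that starts vesicle budding from the endoplasmic reticulum. Preb exons cover 1575 of the 1758 exon bases of Abhd1 (89.6%). The first exon of Abhd1 shares 0 bases with them and is shown whole, at chr5:30950066-30950248 on the plus strand of GRCm38.
Abhd1 exon 1: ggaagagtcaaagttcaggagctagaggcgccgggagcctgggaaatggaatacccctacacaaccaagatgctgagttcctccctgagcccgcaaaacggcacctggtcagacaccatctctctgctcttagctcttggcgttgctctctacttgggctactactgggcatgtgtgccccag

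Gm2420 resembles Sfi1, which encodes a centrin-binding protein of the mitotic spindle poles. Their transcripts were 93.9% identical over 2266 aligned columns, with 117 mismatches and 21 gap columns. A stretch of 60 bases, bases 1139 to 1198 of the Gm2420 transcript and 2622 to 2681 of the Sfi1 transcript, shows how few letters divide the genes, with its 3 mismatches in capitals.
Gm2420: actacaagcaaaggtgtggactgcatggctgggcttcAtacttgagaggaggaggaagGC
Sfi1: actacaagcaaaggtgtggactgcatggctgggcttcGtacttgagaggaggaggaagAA

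Both genes that were lower in the knockout, AI506816 and Rint1, have a RefSeq promoter window. The 250 bases before each start are shown because both genes were lower and lie close together, on opposite strands. They are at chr5:23712668-23712917 on the minus strand and chr5:23787461-23787710 on the plus strand of GRCm38.p6. Capitals mark GC boxes (GGGCGG, on either strand), which 32.7% of 32851 such windows hold.
AI506816: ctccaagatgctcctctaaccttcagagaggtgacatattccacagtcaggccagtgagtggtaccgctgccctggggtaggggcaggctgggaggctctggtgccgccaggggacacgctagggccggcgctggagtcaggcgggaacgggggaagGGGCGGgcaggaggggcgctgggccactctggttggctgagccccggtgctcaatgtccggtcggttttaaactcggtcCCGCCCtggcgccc
Rint1: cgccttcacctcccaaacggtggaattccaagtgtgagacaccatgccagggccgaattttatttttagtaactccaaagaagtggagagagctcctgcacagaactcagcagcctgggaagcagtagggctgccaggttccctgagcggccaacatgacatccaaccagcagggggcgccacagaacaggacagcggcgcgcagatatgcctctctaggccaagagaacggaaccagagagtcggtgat

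The AI506816 window held 2 GC boxes. The Rint1 window held none of the 5 motifs searched on both strands: the GC box, CCAAT (in 33.8% of windows), TATAAA (12.4%), TGACGTCA (1.55%) and CACGTG (6.02%). Galnt11 has 2 windows, and the downstream one held none of the 5 motifs. The upstream window, all 250 bases of which lie in GENCODE M21 exons, held TGACGTCA, the palindrome of the cyclic AMP response element. TGACGTCA is shown in capitals within 30 bases at chr5:25222832-25222861 on the plus strand. A GC box, left in lower case, ends where it begins.
Galnt11: gccgcgggcggTGACGTCAtcctcggaggc
The motif matches are descriptions of letters, and no binding was measured here.

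Library depth was 32073865 to 74041441 gene counts. Il6 itself was at 0 to 4 counts in the 12 WT libraries and at 1 to 16 in the 7 libraries labelled knockout, so its counts do not check the genotype labels. Hepatocyte markers (5 of 6 tested) summed to 66440 to 137300 CPM (gene counts scaled to a common library size). After vehicle this sum was 92150 to 97240 CPM in knockout and 70050 to 91740 CPM in WT libraries. Under PRA it was 102300 to 137300 CPM in knockout and 88250 to 95330 CPM in WT libraries. Most of the sum was Alb, at 75770 CPM on average in knockout and 57630 CPM in WT libraries. The other markers did not all follow Alb. After vehicle the log2 genotype differences were 0.21 for Alb, 0.18 for Apoa1, 0.06 for Apob, -0.09 for Ttr and -0.24 for Cps1. Between genotypes, the marker lists of 11 cell types and tissues held 1 gene called after vehicle, the neutrophil marker S100a8, and 1 under PRA, the globin Hbb-bt. Summed neutrophil markers were at 2.03 to 3.92 CPM in knockout and 0.600 to 0.994 CPM in WT libraries after vehicle. Under PRA the genotypes overlapped, at 2.63 to 9.65 CPM in knockout and 7.12 to 9.31 CPM in WT libraries. The part of hepatocyte and neutrophil markers in the genotype differences below was not tested. In bulk liver, fewer cells of a type and less RNA per cell cannot be told apart.

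Abhd1 was the gene with the widest separation of genotypes in the table. Its levels, in CPM of libraries scaled by TMM, were 65.8, 48.4, 59.0 and 55.6 in knockout livers after vehicle and 61.1, 62.6 and 54.5 under PRA. In WT livers they were 3.05, 3.08, 2.19 and 2.90 (normal), 3.04, 4.10, 3.81 and 4.00 (vehicle) and 4.57, 3.27, 2.78 and 3.20 (PRA). The lowest knockout library stood 10.6-fold above the highest WT library, and the 3 WT groups overlapped with each other, as did both knockout groups. The knockout level was 15.3-fold that of WT after vehicle (log2 fold change 3.94 ± 0.15, SE of the fit) and 17.3-fold under PRA (4.12 ± 0.15). In counts, the 7 knockout libraries held 2456 to 3422 each and the 12 WT libraries 104 to 264.

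Preb did not follow Abhd1. It was at 89.6 ± 12.7 CPM (SD, n = 4) in knockout and 86.6 ± 5.19 CPM (n = 4) in WT livers after vehicle, and at 77.1 ± 6.98 (n = 3) and 87.7 ± 8.41 CPM (n = 4) under PRA. The log2 difference between genotypes was 0.05 ± 0.10 after vehicle (edgeR adjusted p = 0.996, 95% interval -0.14 to 0.24) and -0.19 ± 0.11 under PRA (edgeR adjusted p = 0.406, interval -0.39 to 0.02). The strand setting of the counting is not given in the sources used here, so reads of the overlap cannot be assigned to a strand from these files. Reads that matched more than 1 gene were set aside as ambiguous and made up 0.505% to 0.639% of a library.

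AI506816 went the other way, with low levels in every knockout library. The knockout libraries were at 0.487, 0.260, 0.373 and 0.280 CPM after vehicle and 0.607, 0.790 and 0.234 CPM under PRA. The WT libraries were at 5.23, 5.76, 4.06 and 3.40 CPM (normal), 6.80, 4.17, 4.08 and 4.16 CPM (vehicle) and 5.50, 8.01, 5.86 and 8.39 CPM (PRA). No library crossed over: the lowest WT library was 4.31-fold above the highest knockout one. The level was 13.7-fold lower in knockout than WT after vehicle (log2 fold change -3.78 ± 0.30) and 12.9-fold lower under PRA (-3.69 ± 0.33). It was not at zero, with 11 to 34 counts in each knockout library. A predicted gene, Gm42427, is 91.1% identical to AI506816 over 2474 bases, and it held at most 6 counts in any library.

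Rint1, the vesicle tethering subunit, was lower in the knockout by a smaller factor. The knockout libraries were at 5.91, 6.09, 5.81 and 5.79 CPM after vehicle and at 4.16, 5.66 and 4.76 CPM under PRA. The WT libraries were at 9.996, 13.3, 10.1 and 11.4 CPM (normal), 12.8, 8.94, 8.93 and 10.7 CPM (vehicle) and 9.49, 11.1, 10.6 and 13.6 CPM (PRA). Again no knockout library reached the WT range, although the gap was 1.47-fold, and the 3 WT groups overlapped. The level was 1.76-fold lower in knockout after vehicle (log2 fold change -0.81 ± 0.14) and 2.31-fold lower under PRA (-1.21 ± 0.15).

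Gm2420 was detected almost only in knockout livers, at low counts. The knockout libraries held 15, 23, 12 and 10 counts after vehicle and 11, 1 and 7 under PRA. Of the 12 WT libraries, 11 held 0 counts and WT vehicle replicate 2 held 1. A count of 0 allows up to 3 counts, or 0.0405 to 0.0935 CPM depending on the library, and this limit covers counting error only. Knockout PRA replicate 2, with 1 count, was within that limit. Relative to total gene counts, the 79 counts of the 7 knockout libraries and the 1 count of the 12 WT libraries gave a ratio of 139, with an exact 95% interval of 24.3 to 5562 for counting error alone. After vehicle the ratio was 70.7 (12.2 to 2838). Under PRA, where the WT libraries held 0 counts, the knockout level was 7.18-fold that of 3 counts over the 4 WT libraries. That value leaves out the counting error of the knockout libraries, so it is not a lower limit.

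Sfi1, with its near-identical stretches, was at 10.5 ± 0.873 CPM in knockout and 12.2 ± 1.12 CPM in WT livers after vehicle (n = 4 each), and at 8.73 ± 0.890 (n = 3) and 8.66 ± 0.780 CPM (n = 4) under PRA. Its log2 genotype differences were -0.21 ± 0.10 (edgeR adjusted p = 0.863) and 0.01 ± 0.11 (edgeR adjusted p = 0.978). The plot of overlapping and similar genes shows both pairs. How the counting divided reads between copies as similar as Gm2420 and Sfi1 is not given in the sources used here, which leaves the Gm2420 level uncertain.

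**Figure D1:**
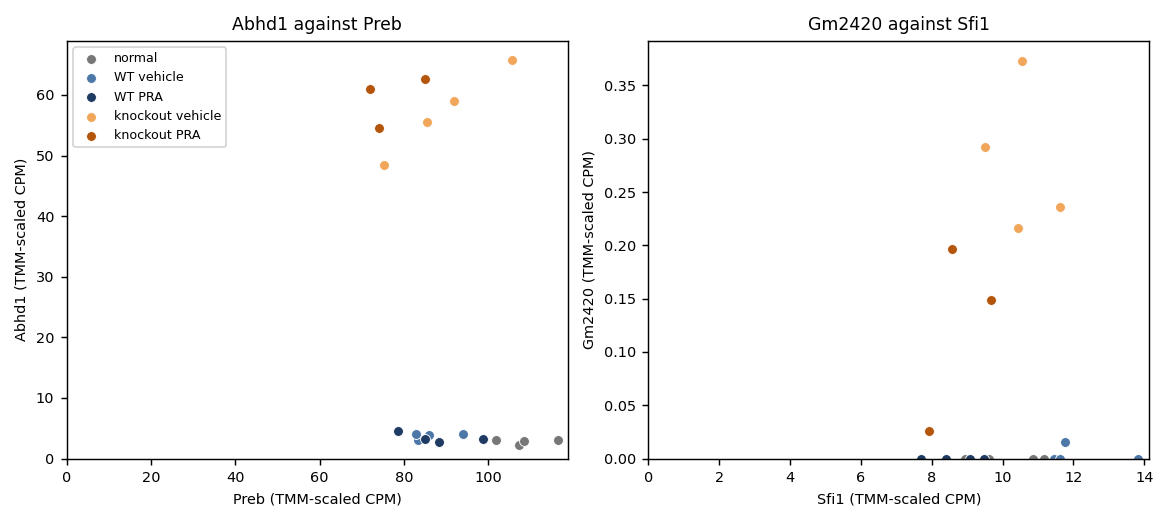
Each point is 1 liver library, with the overlapping gene Preb or the similar gene Sfi1 on the x axis and Abhd1 or Gm2420 on the y axis, all in TMM-scaled CPM on linear axes from 0. The 7 knockout libraries (orange shades) stood at 48.4 CPM or more of Abhd1 at Preb levels of 72.0 to 106 CPM, which overlapped with the WT range of 78.6 to 117 CPM.

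Galnt11, the glycosyltransferase, differed least between genotypes and did not divide all libraries by genotype. The knockout libraries were at 15.3, 16.8, 16.6 and 16.8 CPM after vehicle and 18.1, 19.3 and 20.1 CPM under PRA. The WT libraries were at 9.45, 9.44, 9.34 and 10.1 CPM (normal), 11.8, 13.0, 11.8 and 12.2 CPM (vehicle) and 15.0, 15.9, 15.9 and 16.2 CPM (PRA). The lowest knockout library (15.3 CPM, after vehicle) was below the highest WT library (16.2 CPM, under PRA), so Galnt11 separated the genotypes only within a treatment. Within a treatment the libraries of the genotypes did not overlap for any of the 5 genes, as for 2.68% of all genes after vehicle and 15.7% under PRA, and nothing is read from this because the genes were chosen on it. Knockout was 1.34-fold WT after vehicle (log2 fold change 0.43 ± 0.07) and 1.21-fold WT under PRA (0.28 ± 0.08). From low to high the group means were ordered normal, WT vehicle, WT PRA, knockout vehicle and knockout PRA, and of the neighbours in that order only WT PRA and knockout vehicle overlapped.

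**Figure D2:**
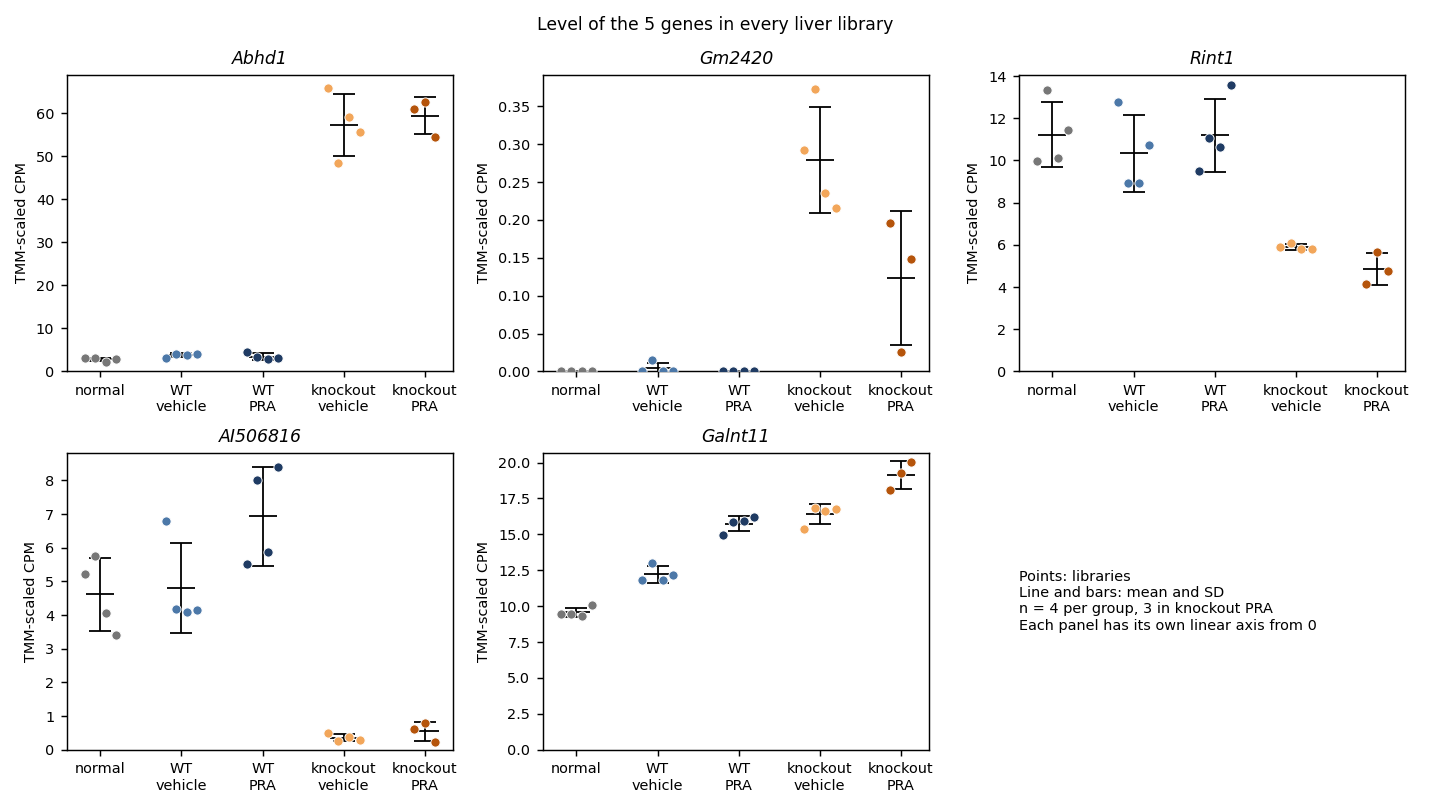
Each point is 1 library in TMM-scaled CPM (y axis, linear, separate for each gene) by group (x axis), with the mean and SD of the group as line and bars (n = 4, or 3 for knockout PRA). Abhd1 and Gm2420 were high and Rint1 and AI506816 low in both knockout groups, while Galnt11 stepped up from 9.57 CPM in normal to 19.1 CPM in knockout PRA livers.

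Across the whole table, few genes divided the genotypes as these did. The 7 knockout and 12 WT libraries did not overlap for 13 of 15570 genes (0.0835%), of which 4 were Abhd1, AI506816, Rint1 and Gm2420. Asking also for a gap of at least 1.5-fold and a mean level of 1 CPM or more in the higher genotype left only Abhd1 and AI506816. Just outside that limit were Rint1, with a gap of 1.47-fold, and Gm2420, with a gap of 1.64-fold but under 1 CPM. The Gm2420 gap sets 1 count in knockout PRA replicate 2 against 1 count in WT vehicle replicate 2. Its gap and its lack of overlap therefore rest on library scaling alone. The gene other than the 5 whose gap was widest was Ccdc146, a gene of centrioles and sperm flagella on chromosome 5, at 0.294 CPM on average in knockout and 0.0185 CPM in WT libraries, a gap of 1.48-fold. That gap set 0.0864 CPM against 0.0585 CPM, both within the range of 3 counts (0.0405 to 0.0935 CPM, depending on the library). Ccdc146 was followed by Gm21887 on chromosome X, Gm47283 on chromosome Y, and Tmem254a and Plac9a on chromosome 14, all lower in knockout, with gaps of at most 1.23-fold. Ikbke, Clk3, Chd2 and Alb were higher in knockout with gaps under 1.03-fold, and Mup21 overlapped slightly (0.992).

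By the edgeR quasi-likelihood test (adjusted p at or under 0.05 over all genes), 11 genes (0.0706%) were called between genotypes after vehicle and 591 (3.8%) under PRA. Called in both with the same sign were 6 genes (0.0385%): the 5 described here, which were chosen on this contrast, and Slc39a4, a zinc importer gene of chromosome 15. Slc39a4 was lower in knockout, at 33.1 against 64.9 CPM on average, with log2 fold changes of -1.18 ± 0.19 after vehicle (edgeR adjusted p = 0.0155) and -1.23 ± 0.21 under PRA (0.00209). The number called after vehicle was 2 without WT vehicle replicate 4, 6 without WT vehicle replicate 2 and 5 without knockout vehicle replicate 3, and DESeq2 called 56.

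The surroundings of the 5 genes were examined next, to see whether other genes near Il6 also differed by genotype. Of 213 other genes tested within 20 Mb of Il6, 0 were called after vehicle, against 0.0385% of all genes but the 5. Under PRA 11 were called (5.16%, against 3.76%). None of the 213 was called in both contrasts by edgeR. DESeq2 called 2 of them in both, Cad and Mrpl33, and limma-voom called 4: Atraid, Cad, Pisd and Gm43852. At an unadjusted p under 0.05, 34 of the 213 (16%) differed after vehicle, against 5.96% of all genes but the 5, and 45 (21.1%) under PRA, against 16.3%. At that unadjusted level 16 genes were in both lists with the same sign, which was 47.1% of the vehicle list and 35.6% of the PRA list. Over all genes but the 5, such overlap was 29.3% and 10.7%. The WT and knockout libraries of these contrasts are separate for vehicle and PRA, but the genes of the window are measured in the same livers and are not independent of each other.

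All 16 lay within 10 Mb of Il6: 10 within 5 Mb and 6 at 5 to 10 Mb, with 0 of 34 genes at 10 to 20 Mb. Beyond the window, 0 of 100 genes at 20 to 40 Mb, 13 of 708 farther along chromosome 5 and 241 of 14516 on other chromosomes met the same criterion. They were selected on unadjusted values and are given as a description. Higher in knockout were Pisd, the mitochondrial phosphatidylserine decarboxylase, Mrpl33, a mitochondrial ribosomal protein, Cad, which starts pyrimidine synthesis, the endothelial nitric oxide synthase Nos3, Ccdc146, Drc1, Gm9057 and 1700096K18Rik. Lower were Pus7, a pseudouridine synthase, Nub1, Gsap, Atraid, Supt7l, Rbks, Gm43852 and Tnip2, whose product inhibits NF-kB signalling. Cad was at log2 fold changes of 0.50 ± 0.13 and 0.53 ± 0.14 (edgeR adjusted p = 0.252 after vehicle and 0.0332 under PRA). Tnip2 was at -0.35 ± 0.14 and -1.24 ± 0.16 (0.72 and 4.11e-05), and Ccdc146 at 3.16 ± 0.71 and 4.28 ± 0.96 (0.134 and 0.0122). The size of the Ccdc146 values is uncertain, because its WT mean of 0.0185 CPM was below the level of 3 counts.

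**Figure D3:**
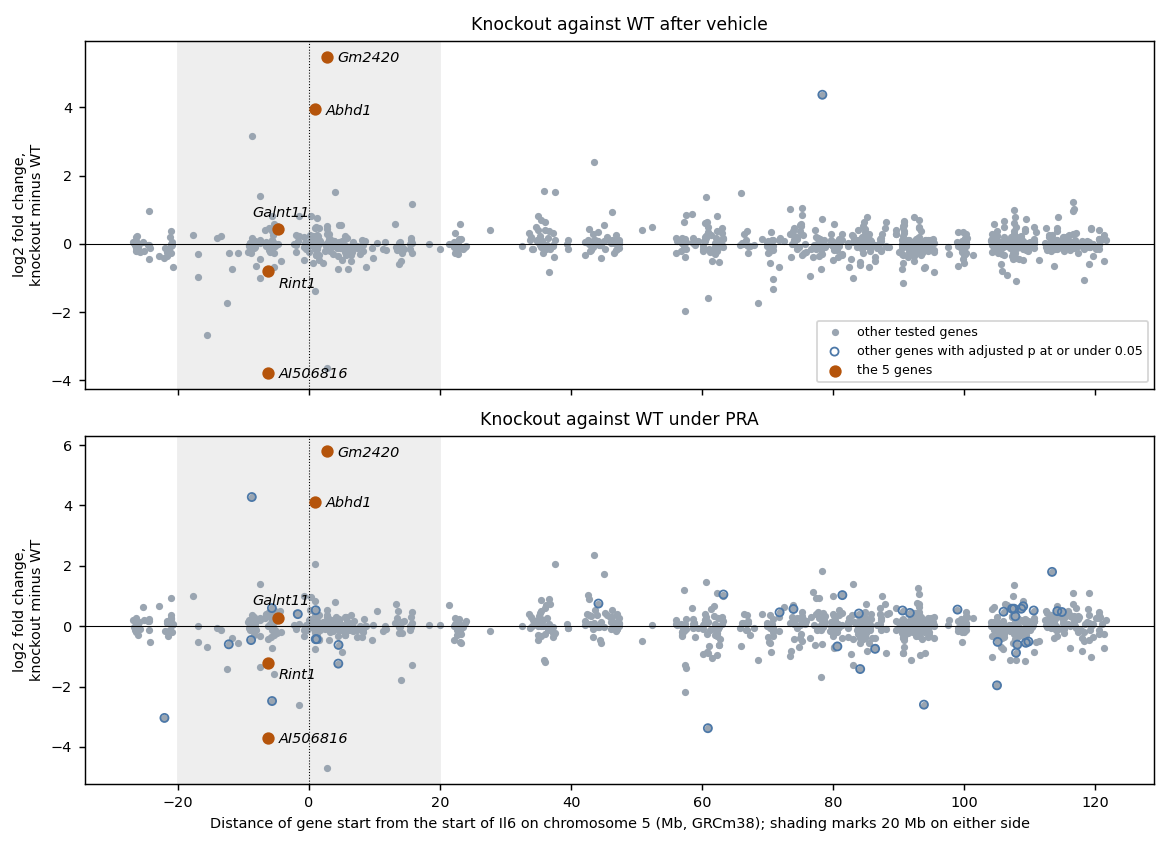
Each point is a tested gene of chromosome 5, by the distance of its start from Il6 (x axis, Mb) and its fitted log2 fold change, knockout minus WT (y axis), after vehicle (top) and under PRA (bottom). Abhd1, Gm2420 and AI506816 stand farthest from 0 among the 5 labelled genes; the fitted value of Gm2420 depends on the prior count because WT libraries were at or near 0.

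**Figure D4:**
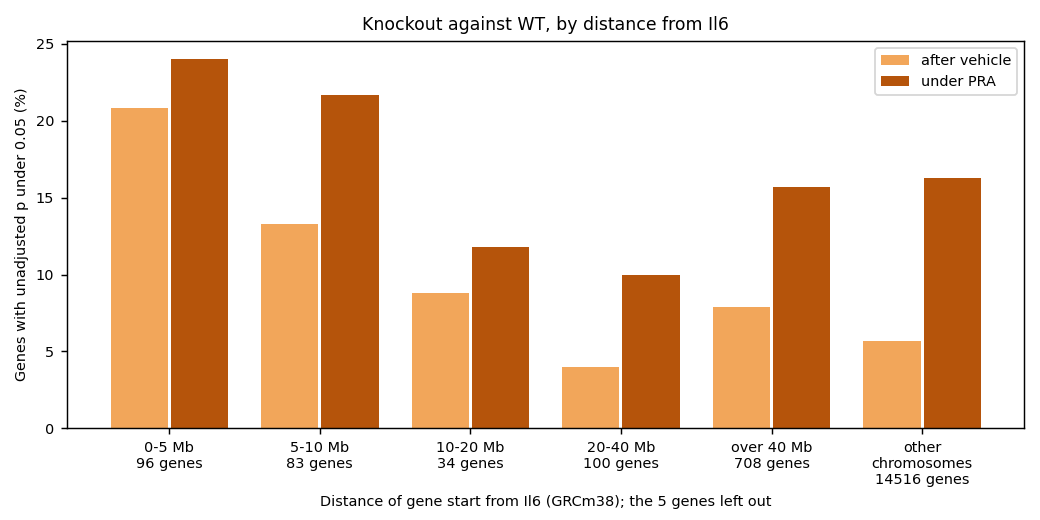
Bars give the percentage of tested genes with an unadjusted edgeR p under 0.05 between genotypes (y axis from 0) by distance from Il6 (x axis, with the number of genes), the 5 genes left out. After vehicle the share was 20.8% within 5 Mb, 13.3% at 5 to 10 Mb, 8.82% at 10 to 20 Mb, 4% at 20 to 40 Mb, 7.91% beyond and 5.71% on other chromosomes.

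No immediate neighbour of the 5 genes was called by edgeR on all libraries in either genotype contrast. Those of Gm2420, Gm43852 and Pisd, were called in both by limma-voom, and by edgeR without knockout vehicle replicate 1 (Gm43852) or 2 (Pisd). Pus7 lies between AI506816 and Rint1, its lowest coordinate 42.4 kb and 47.1 kb from theirs. Pus7 was at log2 fold changes of -0.75 ± 0.17 after vehicle (edgeR adjusted p = 0.142) and -0.42 ± 0.19 under PRA (0.271). Farther out on either side, Srpk2, a kinase of splicing factors, was at 0.05 ± 0.12 and 0.39 ± 0.14 (adjusted p = 0.997 and 0.134), and Tomm7, of the mitochondrial import pore, at 0.02 ± 0.10 in both (0.998 and 0.948). Around Gm2420, the predicted gene Gm43852 was at -3.63 ± 0.69 and -4.69 ± 1.40 (adjusted p = 0.0598 and 0.0703), at 0.00835 CPM on average in knockout and 0.142 CPM in WT livers, while Pisd was at 0.53 ± 0.11 and 0.38 ± 0.12 (0.0716 and 0.0703). Gm2420 and Gm43852, whose starts are 7.26 kb apart, thus had opposite signs. The size of both fitted values depends on the prior count, because Gm2420 in WT and Gm43852 in knockout libraries were at or near 0. Cgref1, before Abhd1, was at -1.38 ± 0.33 and -0.74 ± 0.39 (adjusted p = 0.168 and 0.366). Beside Galnt11, 2900005J15Rik was at 0.52 ± 0.18 and -0.24 ± 0.23 (0.581 and 0.689) and the histone methyltransferase gene Kmt2c at -0.01 ± 0.15 and 0.32 ± 0.16 (0.999 and 0.326).

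Relatives of Galnt11 and Abhd1 and partners of Rint1 were compared by genotype as well. Over all genes tested, 0.0706% were called after vehicle and 3.8% under PRA. Few or no calls are therefore expected in lists this short, and nothing is read from their counts. Of 10 other GalNAc transferase genes tested (19 listed), 0 were called in either genotype contrast, with median log2 fold changes of 0.02 after vehicle and -0.00 under PRA, against -0.01 and 0.02 over all genes. Galnt1, the member of that list used as an example, was at -0.04 ± 0.13 and 0.18 ± 0.14 (edgeR adjusted p = 0.998 and 0.577). Of 18 alpha/beta hydrolase domain genes tested (20 listed), 0 were called after vehicle and 1 under PRA, Abhd17c, a protein depalmitoylase gene that was lower in knockout (-0.28 ± 0.07, edgeR adjusted p = 0.0377). Of the 7 partners of Rint1 in the NRZ tether and its SNAREs, all tested, 0 were called in either contrast. Nbas and Zw10, the other subunits of the tether, were at 0.13 ± 0.09 and -0.19 ± 0.11 after vehicle (edgeR adjusted p = 0.955 and 0.901) and at 0.13 ± 0.10 and 0.07 ± 0.12 under PRA (0.588 and 0.85).

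Treatment was not used to choose the genes, so its effect on them was tested. The injected libraries also entered the genotype contrasts that chose the genes, so these tests are not fully free of that choice. Galnt11 rose with vehicle injection and again with PRA in WT livers. In normal livers it was at 9.57 ± 0.322 CPM, after vehicle at 12.2 ± 0.584 CPM and under PRA at 15.8 ± 0.523 CPM (SD, n = 4 each), and none of these groups overlapped. Non-overlap was seen for 8.52% of all genes between WT vehicle and normal, 23.2% between WT PRA and WT vehicle and 33.6% between WT PRA and normal. The log2 fold change was 0.35 ± 0.07 for vehicle against normal (edgeR adjusted p = 0.0135), where 2% of genes were called. It was 0.37 ± 0.07 for PRA against vehicle (edgeR adjusted p = 0.00104), where 22.1% were called, and 0.72 ± 0.07 for PRA against normal (edgeR adjusted p = 3.58e-07), where 28.4% were called. These comparisons share libraries. The call for vehicle against normal was lost without normal replicate 2 (adjusted p = 0.0527) or WT vehicle replicate 2 (0.0544), with no low-count filter (0.0713) and when only both groups were fitted (0.113).

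In knockout livers Galnt11 was at 16.4 ± 0.715 CPM after vehicle (n = 4) and 19.1 ± 0.997 CPM under PRA (n = 3). The groups did not overlap, as for 25.2% of genes, and the log2 fold change was 0.22 ± 0.08 (edgeR adjusted p = 0.0575), where 16.3% of genes were called. DESeq2 (adjusted p = 0.0234) and the filter of 1 CPM in 3 libraries (0.049) put it past the threshold, as did leaving out WT vehicle replicate 1 (0.0364) or knockout PRA replicate 1 (0.0478). The response in knockout minus that in WT was -0.15 ± 0.11 (95% interval -0.36 to 0.06). This interaction, in which 0.475% of all genes were called, is built from the genotype contrasts that chose the 5 genes, so its values are a description for them and carry no test. Among the other GalNAc transferases, 2 of 10 rose in WT PRA against vehicle, a share near the 22.1% of all genes called in either direction. They were Galnt6, 2.00-fold, and Galnt18, 1.80-fold (edgeR adjusted p = 0.0169 and 0.0028). The median log2 fold change of the list was -0.14, against -0.03 over all genes. In the same WT comparison 4 of 4 neutrophil, 3 of 4 red blood cell and 1 of 5 cholangiocyte markers rose. Of 6 sinusoidal endothelial markers 5 fell and 1 rose, and 4 of 5 stellate, 3 of 5 B cell and 1 of 2 kidney markers fell. Of the hepatocyte, Kupffer cell, T cell and pancreas markers 0 were called. Their part in the rise of Galnt11 was not tested.

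**Figure D5:**
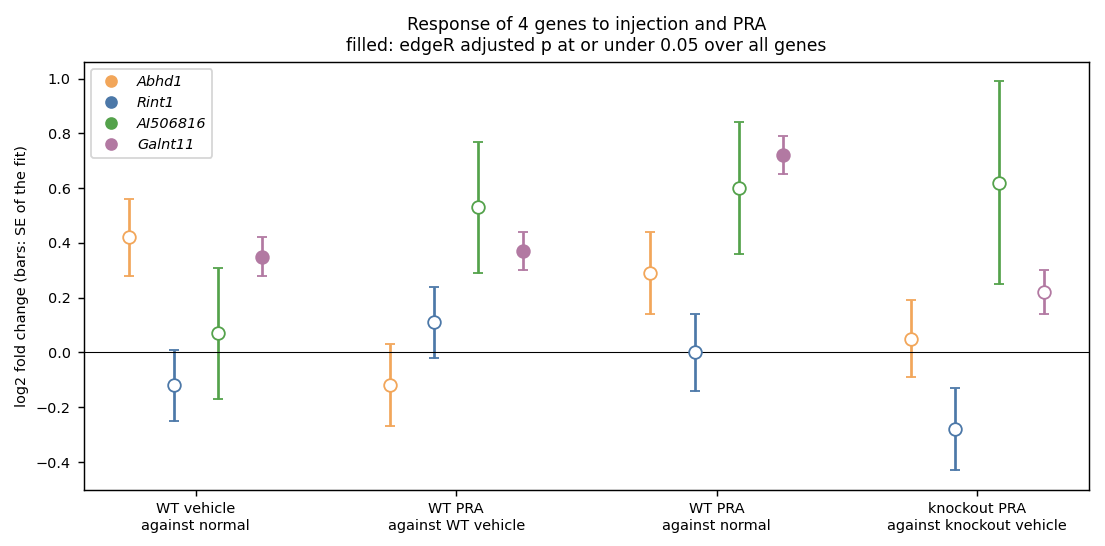
Points are fitted log2 fold changes of Abhd1, Rint1, AI506816 and Galnt11 in 4 treatment comparisons (x axis), with the SE of the fit as bars, and filled points passed the edgeR test adjusted over all genes. Only the Galnt11 points of the 3 WT comparisons were filled, at 0.35, 0.37 and 0.72; Gm2420 is left out because it was at or near 0 in WT livers.

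Abhd1, Rint1 and AI506816 did not pass the edgeR test on all libraries in any treatment comparison, but AI506816 passed in WT livers by other tools, as given with its values. Abhd1 was at a log2 fold change of -0.12 ± 0.15 for PRA against vehicle in WT (edgeR adjusted p = 0.587, 95% interval -0.41 to 0.16) and 0.05 ± 0.14 in knockout (0.833, interval -0.21 to 0.32). Rint1 was at 0.11 ± 0.13 in WT (edgeR adjusted p = 0.584, interval -0.15 to 0.38) and -0.28 ± 0.15 in knockout (0.219, interval -0.58 to 0.01). For Abhd1 both intervals are narrow beside its genotype difference of 3.94 or more, while for Rint1 the lower end in knockout comes near its genotype difference of -0.81. The response in knockout minus that in WT was 0.18 ± 0.20 for Abhd1 and -0.40 ± 0.20 for Rint1. Against normal livers, Abhd1 was at 0.42 ± 0.14 after vehicle (edgeR adjusted p = 0.144) and 0.29 ± 0.15 under PRA (0.148), and Rint1 at -0.12 ± 0.13 and -0.00 ± 0.14 (0.749 and 0.998).

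AI506816 was at 4.80 ± 1.34 CPM after vehicle and 6.94 ± 1.47 CPM under PRA in WT livers (SD, n = 4 each), and these groups overlapped. The log2 fold change was 0.53 ± 0.24 (edgeR adjusted p = 0.121), but limma-voom gave 0.72 (adjusted p = 0.00635). Leaving out replicate 1 of the WT vehicle group, its highest library at 6.80 CPM, gave 0.76 (0.0284). In knockout livers it was 0.62 ± 0.37 (edgeR adjusted p = 0.273) on 11 to 34 counts per library, and the interaction was 0.09 ± 0.43. Against normal livers it was 0.07 ± 0.24 after vehicle (edgeR adjusted p = 0.937) and 0.60 ± 0.24 under PRA (0.0701). This last value passed with DESeq2 (0.0409), with limma-voom (0.00397), and when only the groups compared were fitted (0.0282). It also passed without normal replicate 2 (adjusted p = 0.0496), WT vehicle replicate 1 (0.0441) or knockout PRA replicate 3 (0.037).

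Gm2420 had counts under both treatments only in knockout livers, and it passed the low-count filter through its vehicle libraries there, so its values are a description with no test. It was at 0.279 ± 0.0705 CPM after vehicle (n = 4) and 0.124 ± 0.0881 CPM under PRA (n = 3), a fitted log2 difference of -1.11 ± 0.58 (95% interval -2.25 to 0.03). The PRA libraries held only 11, 1 and 7 counts.

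Some of the 7 partners of Rint1 were called with treatment. Under PRA 2 rose in WT livers, Sec22b and Stx18, where 22.1% of all genes were called, and 3 in knockout livers, Sec22b, Stx18 and Zw10, where 16.3% were called. In WT livers that share is near the one over all genes. Stx18, a SNARE of the endoplasmic reticulum, was at 0.47 ± 0.09 and 0.36 ± 0.09 (edgeR adjusted p = 0.00058 and 0.0118), and Sec22b, a SNARE of the same route, at 0.44 ± 0.08 and 0.27 ± 0.08 (0.000315 and 0.0296). The median log2 fold changes of the list were 0.11 and 0.27, against -0.03 and -0.00 over all genes. Of 18 alpha/beta hydrolase domain genes, 2 rose under PRA in WT livers, Abhd17c (0.33 ± 0.07, edgeR adjusted p = 0.00147) and Abhd4 (0.28 ± 0.10, 0.0357), against 22.1% of all genes called in either direction. In knockout livers 0 were called, against 16.3% of all genes.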

How the data were processed

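The values the authors deposited are unnormalized read counts for every gene. A series-wide table and separate library files held the same numbers. Per the submitters' processing notes, the build was GRCm39 and the tools included HTSeq 0.11.3, HISAT2 2.2.1 and SAMtools 1.13. Neither the strand setting nor the annotation release is given in the sources used here. Groups and replicate numbers came from the sample titles. Gene positions, exon overlaps and transcripts came from GENCODE M21 (GRCm38) by Ensembl ID, and 15542 of 15570 tested genes had a position. Promoter windows came from RefSeq (GRCm38.p6), which gave 1 for Rint1, 1 for AI506816 and 2 for Galnt11.

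Counts were fitted with edgeR 4.0.16 in R 4.3.3: filterByExpr, TMM scaling and 1 robust quasi-likelihood model of the 5 groups over 19 libraries. Of 7 contrasts, the genotype contrasts and the interaction are descriptive for the 5 genes, and the others were tested for them, except for Gm2420. P-values were adjusted by Benjamini-Hochberg over all genes within a contrast, with a threshold of 0.05. The procedure was tested on simulated data. Alternatives were RLE and upper quartile scaling, other low-count filters, DESeq2 1.42.0, limma-voom (limma 3.58.1), a replicate block, fits to fewer groups and each library left out.

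The genes, lists and tests were chosen with earlier results of these data known. Named by rule were the 5 genes, Il6, genes within 20 Mb called in both genotype contrasts without overlap (there were none), the 10 others with the widest gap between genotypes, the nearest tested neighbours and up to 3 called genes per family list. Other names were chosen after their values were seen.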

Additional observations from a re-analysis of the deposited data

Results flagged for a closer look

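Within groups of 4 libraries, 4 of 18 gene and group combinations had 1 library far from the rest by Dixon's criterion, which chance gives in about 1 of 20. AI506816 was at 6.80 CPM in WT vehicle replicate 1, with the other 3 libraries of the group at 4.08 to 4.17 CPM. Galnt11 was at 10.1 CPM in normal replicate 4, above the others at 9.34 to 9.45 CPM, and at 15.3 CPM in knockout vehicle replicate 1, below the others at 16.6 to 16.8 CPM. Gm2420 was at 0.0156 CPM in WT vehicle replicate 2, which is its 1 count, with 0 counts in the other libraries of the group. Any single count among zeros meets the criterion, so the chance rate does not apply to Gm2420.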

How the results depend on the processing

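No genotype log2 fold change of Abhd1, Rint1, AI506816 or Galnt11 moved by more than the spread between replicates under the alternatives run, and leaving out single libraries kept Abhd1 at 3.84 to 4.26, AI506816 at -4.02 to -3.33, Rint1 at -1.34 to -0.70 and Galnt11 at 0.25 to 0.46. For Galnt11, vehicle against normal in WT was 0.35 with no low-count filter (adjusted p = 0.0713), 0.34 when only both groups were fitted (0.113) and 0.32 to 0.37 without single libraries. PRA against vehicle in knockout was 0.21 with the filter of 1 CPM in 3 libraries (0.049), 0.23 with DESeq2 (0.0234) and 0.19 to 0.28 without single libraries. For AI506816, WT PRA against normal was 0.61 with DESeq2, 0.67 with limma-voom, 0.60 when only both groups were fitted and 0.48 to 0.72 without single libraries, and WT PRA against vehicle was 0.72 with limma-voom and 0.43 to 0.76 without single libraries. The cause of these shifts was not tested.

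Genes called were 176 with DESeq2 for the interaction (74 with edgeR). For WT vehicle against normal (311) they were 655 with DESeq2, 701 with limma-voom and 154 when only both groups were fitted. For knockout against WT after vehicle (11) they were 56, 23 and 7, and under PRA (591) they were 927 with DESeq2 and 898 with limma-voom. Without single libraries the counts were 1671 to 2891 for PRA against vehicle in knockout (1671 without knockout PRA replicate 2), 37 to 95 for the interaction (37 without knockout PRA replicate 2, 40 without WT vehicle replicate 2, 42 without WT PRA replicate 3 and 43 without knockout vehicle replicate 3) and 128 to 369 for WT vehicle against normal (128 without normal replicate 2 and 179 without WT vehicle replicate 2). They were 2 to 15 for knockout against WT after vehicle and 314 to 746 under PRA (314 without knockout PRA replicate 1 and 385 without WT PRA replicate 3). Genes near Il6 called in both genotype contrasts were 2 with DESeq2, 4 with limma-voom and 0 to 1 without single libraries. With no overlap required in place of a gap of 1.5-fold, 11 genes of at least 1 CPM separated the genotypes. Upper quartile scaling moved the share of higher calls from 44.1% to 34% for PRA against vehicle in WT and from 48.7% to 35.3% in knockout. The filter of 1 CPM in 3 libraries removed Gm2420.

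Replicate numbers did not pair the libraries: 9 of 36 same-numbered pairs had a correlation of deviations over 0.1, and in 0 of 10 pairs of groups did all exceed it. With a replicate block, AI506816 in WT PRA against normal was at 0.62 (adjusted p = 0.0496), no other call on the 5 genes changed, and 496 genes were called for knockout against WT under PRA.

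Depth limits Gm2420 most, at 1 to 23 counts per knockout library.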
